A study of Schizosaccharomyces pombe with 31 samples.

Results

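The genes described here are 39 protein-coding genes of fission yeast that were induced late when wild type cells were starved of nitrogen, with little or no increase in the first hour and an increase between 1 h and 4 h. They were chosen from 7001 genes of the time-course table, of which 5150 carried an identifier of the coding type and 4889 of these had a mean normalized count of at least 50 over the 27 libraries. That mean included the mutant libraries, while the ratios that follow used the wild type values alone. SPBPB21E7.11 passed the minimum mean only through the mutant libraries of 4 h, and SPBPB2B2.08 only through the libraries of MM. With 10 added to the mean of the 3 replicates, the level at 1 h had to be below 1.5 times that in minimal medium (MM), and the level at 4 h at least 2.5 times that at 1 h. Both ratios were met by 41 genes, and 2 of these were left out because their identifiers belong to the groups SPAC869, SPAC977 and SPAC212. The wild type levels, and every comparison of a mutant with the wild type, are therefore given as a description without a test.

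The time course followed 3 strains of mating type h-, the wild type (972), *igo1*∆ and *ppk18*∆ *cek1*∆ (with both genes replaced by drug markers), harvested in MM and at 1 h and 4 h after transfer to MM without nitrogen (MM-N) at 25 °C, each in triplicate. A second experiment compared, in duplicate, the wild type with an h- strain that expresses GFP-tagged *ppk18* from the *nmt1* promoter, both after 20 h in MM without thiamine at 25 °C. This promoter is repressed by thiamine, and these cells were not starved of nitrogen. The replicates are called biological in the labels, and the values are read counts per gene divided by a size factor of each library, called normalized counts here.

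In nitrogen-rich medium, TORC1 restrains the Greatwall kinases by way of S6 kinases. The study names Ppk18, Cek1 and Ppk31 as Greatwall kinases of fission yeast, and *ppk31* was not deleted in the strains used here. On nitrogen removal Greatwall phosphorylates the Endosulfine Igo1, which then inhibits the phosphatase PP2A/B55. Nitrogen starvation is also the signal for sexual differentiation, in which the transcription factor Ste11 switches on genes for pheromones, their receptors and their export. Cells of type h- are M cells, which secrete M-factor and sense P-factor, the pheromone of the opposite mating type.

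Each time-course library held between 14921656 and 22464897 reads assigned to genes, and each overexpression library between 14612909 and 18846318. Transcripts of *ppk18* and *cek1* had mean normalized counts of at most 221.6 and 74.7 in the 3 conditions of *ppk18*∆ *cek1*∆, against at least 4215 and 2978 in the wild type, and *ppk18* had 359073 in the overexpression strain against 4968 in its control. Reads of *igo1* were not lost in *igo1*∆, with a mean of 2061 in MM against 3175 in the wild type. As 64.4% of the annotated exon length of *igo1* is untranslated and the position of the reads was not analysed, this transcript does not by itself check the deletion. Some libraries differed from the others of their group. Wild type replicate 1 of 1 h differed from the others with a chi-square per gene of 45.4 and 63.9, against 8.50 between those others, and *ppk18*∆ *cek1*∆ replicate 3 of 4 h with 43.7 and 82.2, against 18.2. The same was seen for *igo1*∆ replicate 1 of 1 h, with 28.0 and 24.6 against 9.06. Without that wild type library the same ratios were met by 48 genes, of which 37 are among the 39.

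The wild type level at 4 h was 3.37 times that at 1 h in the median of the 39 genes. This ratio was above 5 for 8 of them, *mfm1* (60.9), *mam2* (22.8), *sul1* (8.84), *ste11* (8.62), SPCC794.04c (8.02), *pof15* (7.19), SPBPB2B2.06c (6.99) and *ddr48* (6.52). Just inside the late limit were *sxa2* (2.51), *sua1* (2.52) and *prl65* (2.57), and just outside it *pmp3* (2.46), SPBC3H7.08c (2.46) and SPAC26F1.11 (2.42). Just inside the limit on the first hour were SPBC24C6.09c (1.46), *mfm1* (1.41) and SPAC513.02 (1.39), and just outside it *lsd90* (1.67), *rgs1* (1.85) and *mfm3* (1.86). Per kilobase of exon, normalized counts at 4 h in the wild type ran from 40.9 for SPBPB2B2.08 to 19048 for *mfm1*, with a median of 897.

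The late increase had more than 1 shape. In 15 genes the wild type level at 1 h was at most 0.5 times that in MM, and in 9 of the 39 the level at 4 h was still below that in MM. *sua1*, which encodes ATP sulfurylase, the first enzyme of sulphate assimilation, had 43920.0, 49785 and 48890.2 normalized counts in MM, 2184, 2810.4 and 2865 at 1 h and 5924, 6916 and 6986 at 4 h. Its late increase thus made up for a small part of the drop before it. By contrast, 25 genes lay more than 2 times above their MM level at 4 h, and 11 were above their MM level at 1 h already.

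**Figure D1:**
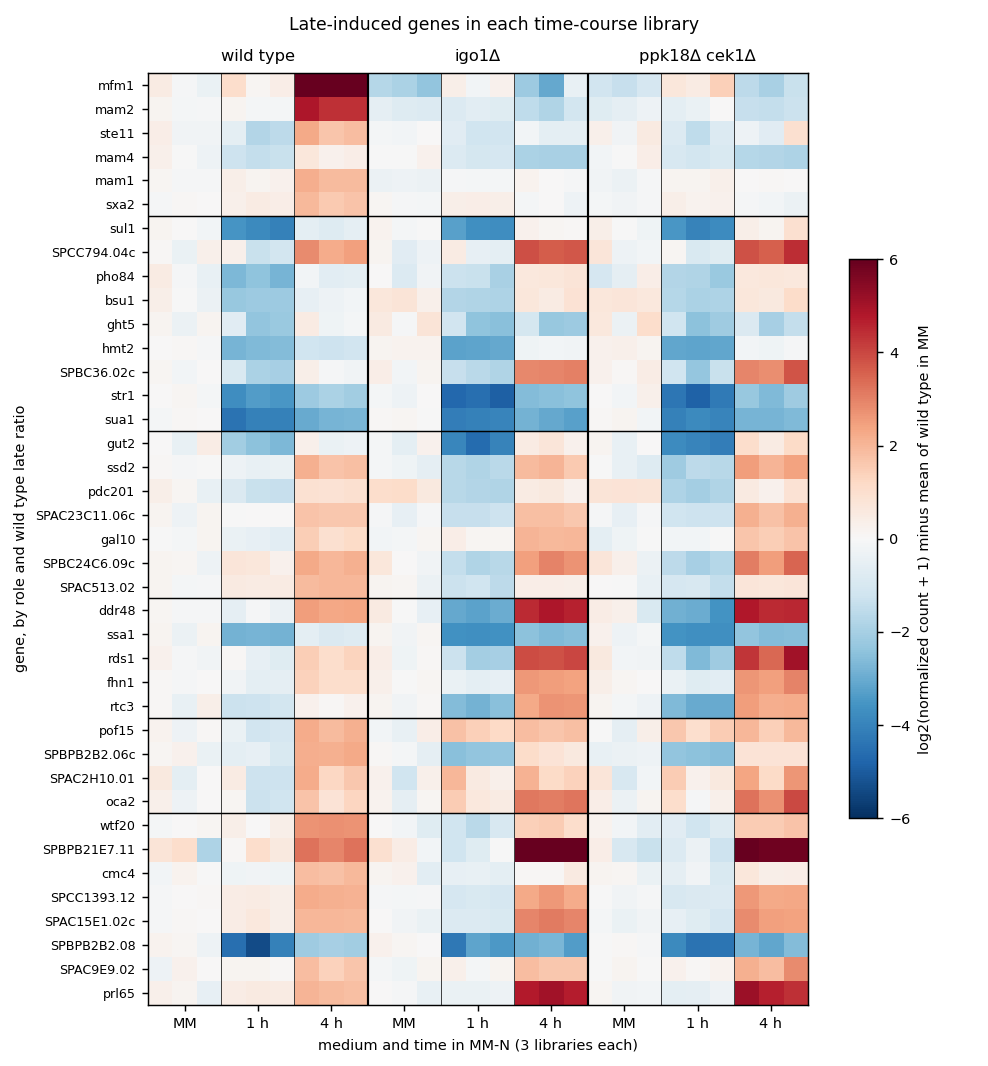
Level of each of the 39 genes in each of the 27 time-course libraries, as log2(normalized count + 1) minus the wild type mean in MM. Rows are genes grouped by role, columns are the 3 libraries of each strain and condition, and the colours end at 6 in both directions. *mfm1* and *mam2* are highest in the wild type libraries of 4 h, whereas *ddr48*, *rds1* and *prl65* are highest in the mutant libraries of 4 h.

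Promoter sequences are shown first for the mating genes, because Ste11 is known to bind an element called the TR box upstream of its targets. Its core, TTCTTTGTT (AACAAAGAA on the other strand), was searched on both strands in the 500 bases before the annotated start of each gene in the RefSeq assembly ASM294v3, while the reads had been aligned to ASM294v2. It was found for 4 of the 39 genes (10.3%), *mfm1*, *ste11*, *mam4* and SPCC1393.12, and for 145 of 5112 coding genes (2.84%). Each line gives 30 bases on each side, 5′ to 3′ on the strand of the gene, with the core in capitals.
*mfm1*, 79 to 71 bases before the start: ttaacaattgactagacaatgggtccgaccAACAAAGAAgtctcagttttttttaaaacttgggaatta
*ste11*, 127 to 119 bases before the start: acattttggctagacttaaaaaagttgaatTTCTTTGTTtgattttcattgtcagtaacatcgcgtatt
*mam4*, 67 to 59 bases before the start: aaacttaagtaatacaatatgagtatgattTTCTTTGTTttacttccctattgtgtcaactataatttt
*mam4*, 179 to 171 bases before the start: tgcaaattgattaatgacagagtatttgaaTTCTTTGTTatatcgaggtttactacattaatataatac

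The core of the cyclic AMP response element, ACGTCA, which the stress factor Atf1 binds, was found for 9 of the 39 genes (23.1%), none of them a mating gene, and for 8.14% of coding genes. It is shown for *rds1*, *hmt2* and *gut2*, from 3 of the groups that follow, with the core in capitals (for *hmt2* it lies on the other strand).
*rds1*, 104 to 99 bases before the start: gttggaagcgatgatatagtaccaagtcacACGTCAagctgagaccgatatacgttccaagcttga
*hmt2*, 51 to 46 bases before the start: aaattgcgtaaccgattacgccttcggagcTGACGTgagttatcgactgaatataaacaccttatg
*gut2*, 70 to 65 bases before the start: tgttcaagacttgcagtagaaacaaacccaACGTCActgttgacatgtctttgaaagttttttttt
On both strands, the element CCCCTC was found for 5 members (12.8%, against 3.42% of coding genes) and the forkhead site GTAAACA for 11 (28.2%, against 24.4%). The GATA site GATAAG was found for 7 (17.95%, against 18.6%), and the MCB site ACGCGT for 1 (2.56%, against 4.01%). A match is a description of letters in a window, and no test was made on it.

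Of the 6 mating genes, 0 rose between 1 h and 4 h in *igo1*∆ and 1 in *ppk18*∆ *cek1*∆ (*ste11*), while 4 fell in each. Of all genes tested, 33.8% rose and 36.3% fell in *igo1*∆, and 34.0% and 35.9% in *ppk18*∆ *cek1*∆. *mfm1* encodes a precursor of M-factor. In wild type cells it had 118, 79.1 and 63.5 normalized counts in MM, 175, 92.4 and 112 at 1 h and 10737, 6727 and 7450.2 at 4 h. In *igo1*∆ it had 25.0, 22.1 and 15.4 in MM, 109, 76.0 and 102 at 1 h and 18.0, 9.24 and 61.4 at 4 h. The libraries of *ppk18*∆ *cek1*∆ had 37.0, 31.2 and 40.9 in MM, 134, 119 and 231 at 1 h and 27.7, 21.5 and 33.0 at 4 h. At 4 h all mutant libraries lay far below all wild type libraries, and in each mutant all libraries of 4 h lay below all of 1 h. From 1 h to 4 h *mfm1* fell by 2.05 ± 0.42 on the log2 scale in *igo1*∆ (SE, n = 3; limma with Benjamini-Hochberg adjustment over 6036 genes, adjusted *p* = 1.58e-04) and by 2.48 ± 0.42 in *ppk18*∆ *cek1*∆ (adjusted *p* = 1.76e-05). Other genes encode the same pheromone, *mfm2* and *mfm3*, and how reads were split among the copies is uncertain. *mfm3* had a mean of 1091 at 4 h in the wild type, against 14.8 in *igo1*∆ and 13.2 in the other mutant.

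*mam2* encodes the receptor for P-factor on M cells. Its wild type libraries had 184, 155 and 151 normalized counts at 1 h and 4863, 3432 and 3496 at 4 h. Those of *igo1*∆ had 93.3, 105 and 100.2 at 1 h and 57.1, 46.2 and 76.0 at 4 h, and those of *ppk18*∆ *cek1*∆ 110.3, 126 and 171 and 63.4, 60.3 and 66.0. Again the groups did not overlap at 4 h, when the wild type mean was 56.5 and 53.8 times the mutant means with 10 added to each. The late change was -0.76 ± 0.17 in *igo1*∆ (limma adjusted *p* = 3.80e-04) and -1.06 ± 0.17 in *ppk18*∆ *cek1*∆ (adjusted *p* = 6.61e-06).

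*ste11* encodes the HMG-box factor that activates the programme. In wild type cells it had 847, 558 and 560.4 normalized counts in MM, 433, 191 and 216 at 1 h and 3107, 2049 and 2302 at 4 h. At 4 h it had 574, 426 and 428 in *igo1*∆ and 515, 397 and 1254 in *ppk18*∆ *cek1*∆, below all wild type libraries. Its late change in *igo1*∆ was 0.56 ± 0.33 (limma adjusted *p* = 0.144), and in *ppk18*∆ *cek1*∆ it rose by 1.02 ± 0.33 (adjusted *p* = 0.00953). That rise rested on a few libraries, since it was 0.53 (adjusted *p* = 0.121) without *ppk18*∆ *cek1*∆ replicate 3 of 4 h and 0.79 (adjusted *p* = 0.0629) without replicate 2 of 1 h.

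The other mating members make, export or degrade pheromones. *mam4*, the methyltransferase of M-factor, fell by 0.96 ± 0.14 late in *igo1*∆ and by 0.79 ± 0.14 in *ppk18*∆ *cek1*∆. *sxa2*, a carboxypeptidase that degrades P-factor, fell by 0.51 ± 0.09 and by 0.45 ± 0.09, and the limma adjusted *p* of these 4 changes was at most 1.87e-04. *mam1*, the transporter that exports M-factor, had 7216, 5919 and 5799 normalized counts at 4 h in the wild type, 1799, 1608 and 1488 in *igo1*∆ and 1620.1, 1678 and 1624 in *ppk18*∆ *cek1*∆. The mutants lay below the wild type without overlap, and the late change of *mam1* did not pass the test in either (0.13 ± 0.08 and -0.14 ± 0.08, limma adjusted *p* = 0.144 and 0.133). All 6 mating genes were lower in all mutant libraries than in all wild type libraries at 4 h. The choice of genes by a wild type rise to 4 h favours this, and 38.6% of all genes in *igo1*∆ and 35.6% in *ppk18*∆ *cek1*∆ were lower. In MM all mutant libraries lay below all of the wild type for *mam1*, *mam2* and *mfm1* in both mutants. The same held for *ssd2* in *igo1*∆ and for *sxa2* and SPAC15E1.02c in *ppk18*∆ *cek1*∆. These are 4 and 5 of the 39 genes, where 8.83% and 8.3% of all genes were lower. In the other direction it held for 2 and 3 genes in MM, where 6.76% and 6.71% of all genes were higher.

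**Figure D2:**
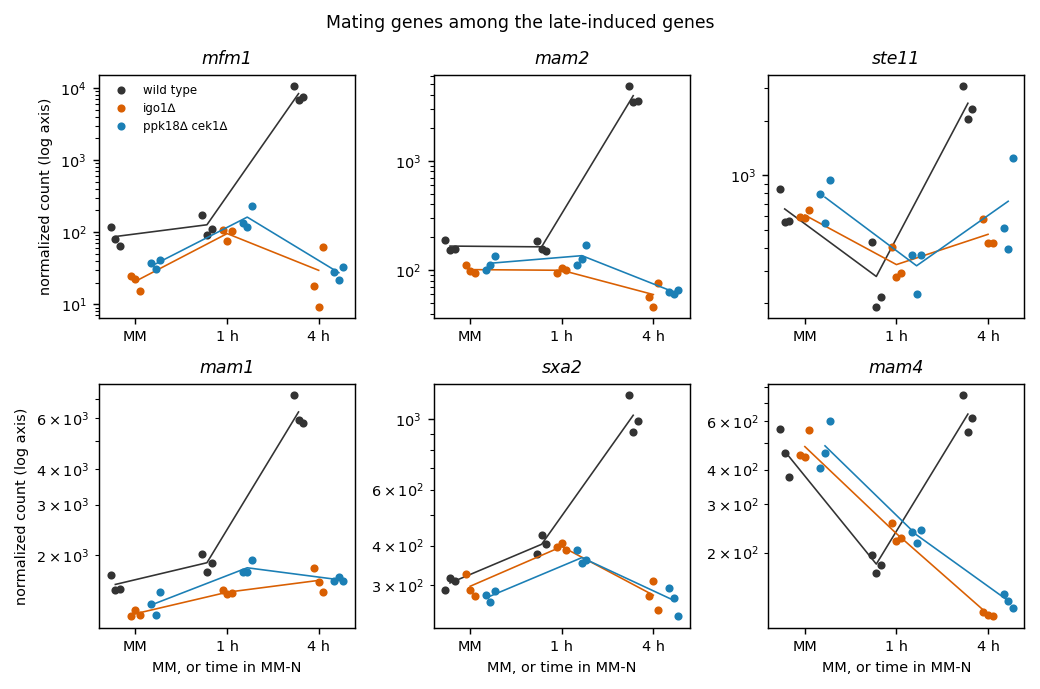
Normalized counts of the 6 mating genes in MM and at 1 h and 4 h in MM-N, on log axes that differ between panels. Points are single libraries and lines join the means of 3 libraries of a strain, and in each panel the 3 wild type points of 4 h lie above all mutant points of 4 h.

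The 6 genes belong to a list of 30 genes for mating, pheromone signalling and sexual differentiation. Not all of the 30 are mating genes of M cells, since the list also holds *map2*, *map3*, *isp3*, *isp4*, *isp6* and *isp7*. In the wild type 12 of the 30 had a late ratio of at least 2.5. From 1 h to 4 h, 16 of the 30 fell and 7 rose in *igo1*∆, and 16 fell and 9 rose in *ppk18*∆ *cek1*∆ (limma, adjusted *p* below 0.05). Of all genes tested, 36.3% fell and 33.8% rose in *igo1*∆, and 35.9% and 34.0% in the other mutant, and the counts of the other lists are to be read against these shares. The medians of the list were -0.53 and -0.33, against -0.01 and -0.01 over all genes.

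Outside mating, most members still rose late in the mutants. From 1 h to 4 h, 29 of the 39 genes rose and 4 fell in *igo1*∆ (limma with Benjamini-Hochberg adjustment), where 33.8% of the 6036 genes tested rose and 36.3% fell. In *ppk18*∆ *cek1*∆ 32 rose and 4 fell, where 34.0% of all genes rose and 35.9% fell. The rises in both mutants include SPBPB21E7.11, which passed the minimum mean only through the mutant libraries of 4 h. The medians of the members were 2.27 and 2.57 on the log2 scale, and 23 and 24 of them rose at least 4-fold. The shares of all genes above are for rises of any size. The share at 4-fold was not counted, so these counts are a description only. The genes called were largely shared, since 29 rose in both mutants and *mfm1*, *mam2*, *mam4* and *sxa2* fell in both.

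The members linked to stress include the largest late rise. *ddr48*, which shares its name with a stress protein of budding yeast, had 1781, 2458 and 2065 normalized counts at 1 h and 14723, 12951 and 13575 at 4 h in wild type cells. In *igo1*∆ it had 309, 279 and 336 at 1 h and 58489.9, 74699.8 and 63357 at 4 h, and in *ppk18*∆ *cek1*∆ 359, 329.8 and 218 and 74280.5, 58684 and 59934. Both mutants thus lay below the wild type at 1 h and above it at 4 h, without overlap at either time. *ddr48* rose by 7.73 ± 0.26 on the log2 scale in *igo1*∆ and by 7.75 ± 0.26 in *ppk18*∆ *cek1*∆ (limma adjusted *p* = 1.81e-17 and 1.91e-17).

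*rds1*, a target of the stress kinase Sty1 and of Atf1, crossed the wild type in the same way. Its wild type libraries had 4279.7, 2898 and 2459 normalized counts at 1 h and 11317, 8364 and 10396 at 4 h. Those of *igo1*∆ had 1669.7, 976 and 1038 at 1 h and 60652, 56678 and 64863 at 4 h, and those of *ppk18*∆ *cek1*∆ 1418, 642 and 937 and 80366, 44521 and 132902. The highest of these values came from *ppk18*∆ *cek1*∆ replicate 3, and the other mutant libraries of 4 h were also above all of the wild type. *rds1* rose by 5.67 ± 0.32 and by 6.36 ± 0.32 (limma adjusted *p* = 3.26e-13 and 3.95e-14). *rtc3* had 4720.3, 4074 and 4669 normalized counts at 4 h in the wild type, 19223, 25679 and 24835 in *igo1*∆ and 22593, 17977 and 18177 in *ppk18*∆ *cek1*∆, and rose by 5.19 ± 0.16 and by 5.20 ± 0.16 from 1 h.

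All 5 members linked to stress or the eisosome, a plasma membrane domain, rose late in both mutants. Of all genes, 33.8% rose in *igo1*∆ and 34.0% in *ppk18*∆ *cek1*∆. *ddr48*, *rds1*, *rtc3* and the eisosome gene *fhn1* lay above the wild type at 4 h in all mutant libraries. *ssa1*, an Hsp70 chaperone, was the exception. It had 2943, 2430.0 and 2564 normalized counts at 4 h in the wild type, 791, 690.1 and 745 in *igo1*∆ and 843, 718 and 746 in *ppk18*∆ *cek1*∆, and yet rose by 1.09 ± 0.13 and by 1.14 ± 0.13 from 1 h. A list of 24 targets of Sty1 and Atf1 holds *rds1* as its only member. Of these 24, 20 rose and 2 fell late in *igo1*∆, and 21 rose and 2 fell in *ppk18*∆ *cek1*∆. These are limma calls at an adjusted *p* below 0.05, for changes of any size. In the wild type 2 had a late ratio of at least 2.5, which is a limit on size without a test. The wild type count is therefore not comparable with those of the mutants.

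**Figure D3:**
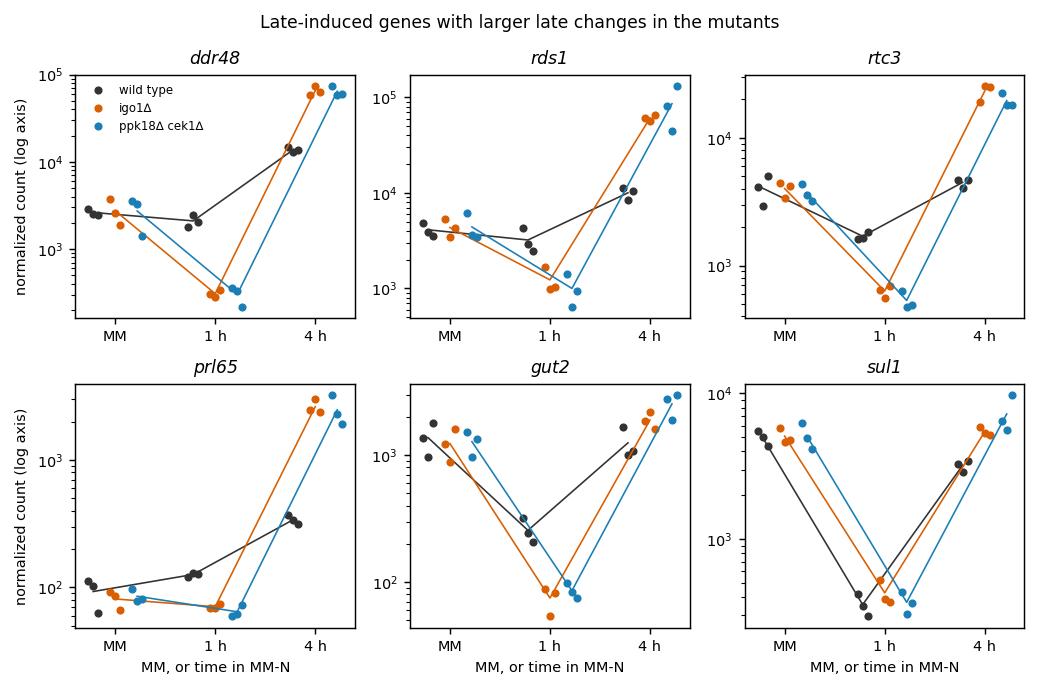
Normalized counts of *ddr48*, *rds1*, *rtc3*, *prl65*, *gut2* and *sul1* in MM and at 1 h and 4 h in MM-N, on log axes that differ between panels. Points are single libraries and lines join the means of 3 libraries of a strain, and for the first 4 genes both mutants lie below the wild type at 1 h and above it at 4 h without overlap.

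Some members of little known function also lay far above the wild type. SPBPB21E7.11 had 14.2, 29.1 and 20.2 normalized counts at 1 h and 137, 107 and 137 at 4 h in the wild type. In *igo1*∆ it had 5.35, 7.77 and 13.2 at 1 h and 989.6, 1069.7 and 1062 at 4 h, and in *ppk18*∆ *cek1*∆ 7.06, 10.4 and 5.07 and 1086, 818 and 816. Its late changes were 6.81 ± 0.53 and 6.77 ± 0.53, from levels of few reads at 1 h. As it passed the minimum mean only through the mutant libraries of 4 h, these changes are a description without a test. *prl65* had 369.5, 338 and 313 normalized counts at 4 h in the wild type, 2483, 3007 and 2365 in *igo1*∆ and 3216, 2292 and 1913 in *ppk18*∆ *cek1*∆, and rose by 5.19 ± 0.18 and by 5.21 ± 0.18. For *prl65* the limma adjusted *p* was at most 1.14e-10 in both mutants. *wtf20*, of the wtf family, and *cmc4* lay below the wild type at 4 h in all mutant libraries and still rose late, *wtf20* by 2.60 ± 0.21 and 2.46 ± 0.21 and *cmc4* by 0.72 ± 0.20 and 1.02 ± 0.20. Reads of *wtf20* may be shared with other members of its family.

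Members for uptake and assimilation mostly rose again after a drop in the first hour, many of them in part only. At 4 h in the wild type *sul1*, *pho84*, *bsu1*, *hmt2*, *str1* and *sua1* were still below their MM level, from 0.14 times it (*sua1*) to 0.79 times (*bsu1*). *sul1*, which encodes a sulphate transporter, had 5533, 5053 and 4361 normalized counts in MM, 422, 347 and 294 at 1 h and 3299.6, 2898 and 3437 at 4 h in the wild type. At 4 h it had 5887, 5314 and 5169 in *igo1*∆ and 6427, 5573 and 9715 in *ppk18*∆ *cek1*∆, above all wild type libraries. It rose by 3.69 ± 0.18 late in *igo1*∆ and by 4.27 ± 0.18 in *ppk18*∆ *cek1*∆ (limma adjusted *p* = 3.13e-14 and 2.24e-15).

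In each mutant 8 of the 9 uptake genes rose late, where 33.8% of all genes rose in *igo1*∆ and 34.0% in *ppk18*∆ *cek1*∆. *sul1*, *pho84*, *bsu1*, *hmt2*, SPBC36.02c and SPCC794.04c lay above the wild type at 4 h in all mutant libraries. *pho84*, a phosphate transporter, had 970.2, 699 and 724 normalized counts at 4 h in the wild type, 1718, 1751 and 1870.2 in *igo1*∆ and 1695, 1759 and 1699.9 in *ppk18*∆ *cek1*∆. *hmt2*, a sulphide oxidoreductase of mitochondria, rose by 2.96 ± 0.06 and by 2.98 ± 0.06 with little spread between replicates. *bsu1*, which takes up vitamin B6, rose by 2.47 ± 0.14 and by 2.60 ± 0.14. *str1*, a transporter of iron bound to siderophores, rose as well, from a low level at 1 h. It had 611, 731 and 648 normalized counts at 4 h in the wild type, 447, 487 and 521 in *igo1*∆ and 563, 443 and 631 in *ppk18*∆ *cek1*∆, so that the second mutant overlapped with the wild type.

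*ght5*, a glucose transporter, was the uptake gene that was not called in the main fit. It had 4353, 1354 and 1479.8 normalized counts at 1 h and 9698, 5813 and 6311 at 4 h in the wild type. In *igo1*∆ it had 3090.1, 1305 and 1216 and 3359, 1407 and 1521, and in *ppk18*∆ *cek1*∆ 3060.4, 1256 and 1599.8 and 3819, 1732 and 2582. At 4 h both mutants lay below the wild type, and replicate 1 was the highest library in every strain at 1 h and at 4 h. The late change was 0.18 ± 0.47 and 0.49 ± 0.47 (limma adjusted *p* = 0.739 and 0.358). With the replicate number as a block within each strain, added after the data were seen, it was called in both mutants (limma adjusted *p* = 0.0204 and 0.00137). In a list of 15 genes named for the uptake of metals, phosphate and sulphate, 10 of the 14 tested rose and 3 fell late in *igo1*∆, and 9 rose and 3 fell in *ppk18*∆ *cek1*∆ (limma). The list holds 5 members, *pho84*, *str1*, *sul1*, the ATP sulfurylase gene *sua1* and the pyruvate decarboxylase gene *pdc201*. Its counts are therefore not those of uptake genes alone.

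All 7 metabolic enzymes rose late in both mutants, where 33.8% of all genes rose in *igo1*∆ and 34.0% in *ppk18*∆ *cek1*∆. *gut2*, the glycerol-3-phosphate dehydrogenase of mitochondria, had 317, 243 and 207 normalized counts at 1 h and 1659.6, 1007 and 1088 at 4 h in the wild type. In *igo1*∆ it had 88.7, 53.5 and 82.2 and 1875, 2201 and 1604, and in *ppk18*∆ *cek1*∆ 98.0, 84.1 and 74.3 and 2762, 1889 and 2968. Both mutants lay below the wild type at 1 h, and at 4 h *igo1*∆ overlapped with it while *ppk18*∆ *cek1*∆ lay above it. *gut2* rose by 4.66 ± 0.26 and by 4.86 ± 0.26 (limma adjusted *p* = 2.17e-13 and 1.06e-13). *pdc201*, a pyruvate decarboxylase, had 1991, 1913 and 2041 normalized counts at 4 h in the wild type, 1485, 1546 and 1236 in *igo1*∆ and 1529, 1258 and 1874 in *ppk18*∆ *cek1*∆. It lay below the wild type in both mutants at 4 h, and it rose by 2.18 ± 0.17 and by 2.45 ± 0.17 from 1 h. In a list of 16 genes for glucose derepression and other carbon sources, which holds *gut2*, *ght5* and *ste11*, 8 rose and 3 fell late in *igo1*∆, and 10 rose and 3 fell in *ppk18*∆ *cek1*∆ (limma).

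The last group holds a kinase, an F-box protein, a transcription factor and a phosphatase. *pof15*, the F-box protein, had 386, 229 and 253 normalized counts at 1 h and 2357, 1882 and 2191 at 4 h in the wild type. In *igo1*∆ it had 1716, 1339 and 1165 and 1840.0, 1582 and 1747, and in *ppk18*∆ *cek1*∆ 1557, 1024 and 1430.2 and 2035, 1369 and 1931. The mutants thus lay above the wild type already at 1 h, without overlap. *pof15* rose by 1.54 ± 0.24 in the first hour in *igo1*∆ and by 1.46 ± 0.24 in *ppk18*∆ *cek1*∆ (limma adjusted *p* = 3.66e-06 and 8.05e-06), and its later change was 0.31 ± 0.24 and 0.41 ± 0.24 (adjusted *p* = 0.257 and 0.129).

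*oca2*, the kinase, had 799, 300.2 and 319.7 normalized counts at 1 h in the wild type, 2104, 1162 and 1038 in *igo1*∆ and 1513, 709.8 and 927 in *ppk18*∆ *cek1*∆. Replicate 1 was the highest in each strain. Its rise in the first hour in *igo1*∆ of 0.96 ± 0.36 (limma adjusted *p* = 0.0202) was not called without *igo1*∆ replicate 1 of 1 h (0.65, adjusted *p* = 0.135) or without replicate 2 in MM (0.73, adjusted *p* = 0.105). SPBPB2B2.06c, the phosphatase, rose by 3.24 ± 0.15 late and by 3.28 ± 0.15, and lay below the wild type at 4 h, with 2272, 2223 and 2413 normalized counts in the wild type, 1092, 903 and 764 in *igo1*∆ and 896, 894 and 879 in *ppk18*∆ *cek1*∆. The transcription factor gene SPAC2H10.01 changed late by 0.60 ± 0.56 in *igo1*∆ (limma adjusted *p* = 0.347) and rose by 1.26 ± 0.56 in *ppk18*∆ *cek1*∆ (adjusted *p* = 0.0483), a call that was lost in 7 of 16 alternatives, which include no filter on low counts, quantile normalization and equal totals, with an adjusted *p* of up to 0.174 without replicate 3 of 4 h.

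**Figure D4:**
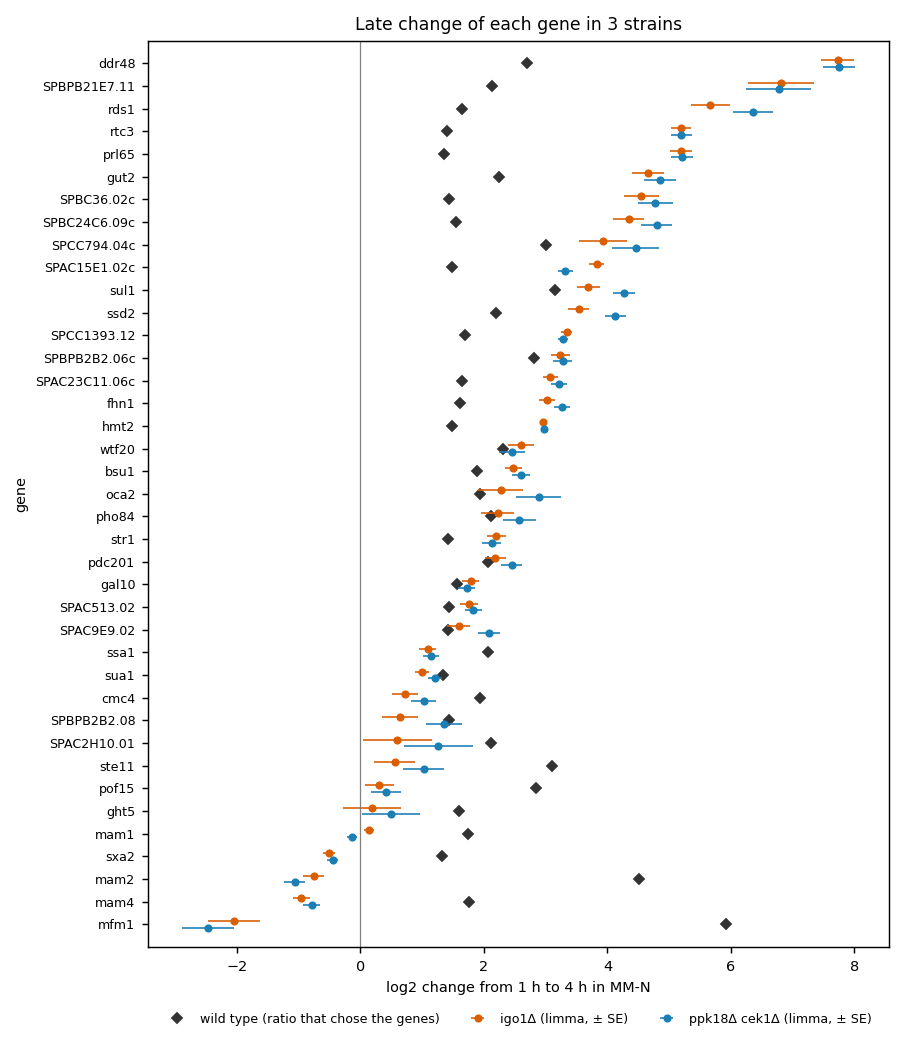
Log2 change from 1 h to 4 h in MM-N for each of the 39 genes. Estimates for the mutants come from limma with their SE (3 libraries a group), and the wild type values are the ratios that chose the genes, drawn without error. The estimates for the mutants run from falls of 2.05 and 2.48 for *mfm1* to rises of 7.73 and 7.75 for *ddr48*.

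Set against the wild type at the same time, the 39 genes lay on both sides. At 4 h 16 genes were higher and 16 lower than the wild type in all *igo1*∆ libraries, where 41.3% and 38.6% of all genes were so. In *ppk18*∆ *cek1*∆ 20 were higher and 14 lower, where 39.6% and 35.6% of all genes were so. The same direction held in both mutants for 16 and 14 genes. At 1 h 6 genes were higher and 21 lower in *igo1*∆ (35.7% and 32.1% of all genes), and 5 were higher and 18 lower in *ppk18*∆ *cek1*∆ (33.5% and 30.9%). The wild type libraries chose the members, so nothing further is read from these counts.

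The first hour was tested within each mutant. In *igo1*∆ 5 of the 39 genes rose and 26 fell from MM to 1 h (limma with Benjamini-Hochberg adjustment), where 39.7% of all genes rose and 38.1% fell. In *ppk18*∆ *cek1*∆ 4 rose and 28 fell, where 39.2% of all genes rose and 38.2% fell. The falls in both mutants include SPBPB2B2.08, which passed the minimum mean only through the libraries of MM. *str1* had the largest fall in both mutants, by 4.57 ± 0.15 and 4.53 ± 0.15, and *sua1* fell by 4.12 ± 0.11 and by 3.97 ± 0.11. All 5 members linked to stress or the eisosome fell, *ddr48* by 3.10 ± 0.26 and 3.09 ± 0.26. The genes that rose in both mutants were *mfm1*, by 2.15 ± 0.42 and 2.07 ± 0.42, *pof15*, *mam1* and *sxa2*. The total of the normalized counts was lower in every starved library than in every library of MM. With each library scaled to the same total, the median change of all genes in the first hour moved from 0.02 to 0.42 in *igo1*∆ and to 0.37 in *ppk18*∆ *cek1*∆, and 8 members rose in each while 23 and 24 fell.

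The mutants were compared with each other without any wild type library. At 4 h 1 of the 39 genes differed, where 6.0% of all genes did. This was SPAC15E1.02c, of little known function, with 4115, 4647 and 4043 normalized counts in *igo1*∆ and 3885, 2965 and 2852 in *ppk18*∆ *cek1*∆. There was no overlap, and the level was higher in *igo1*∆ by 0.41 ± 0.12 (limma adjusted *p* = 0.0456). The call depended on the setting, with an adjusted *p* between 0.00708 and 0.252 over 15 alternatives, the highest without *ppk18*∆ *cek1*∆ replicate 3, and it was lost without any one of 5 of the 6 libraries. edgeR and DESeq2 called 4 members each, *gal10* and SPAC15E1.02c higher in *igo1*∆ and *ssd2* and SPAC9E9.02 higher in *ppk18*∆ *cek1*∆. The 6.0% is the share of limma. The shares of all genes called by edgeR and DESeq2 were not counted, so nothing is read from their counts of members.

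At 1 h 0 members differed, where 0.265% of all genes did, and 0 differed in their late change, where 0.182% of all genes did. At an unadjusted *p* below 0.05 in limma there were 3 and 4 members, and edgeR and DESeq2 called 0 in both comparisons. A missed threshold does not show that the mutants act alike. At 4 h the 95% interval of the difference lay within 1 on the log2 scale for 32 of the 39 genes, and the widest bounds over all were -1.66 and 1.31. The interval ran from -0.46 to 0.24 for *mam2*, from -1.16 to 0.59 for *mfm1*, from -0.51 to 0.57 for *ddr48* and from -1.03 to 0.30 for *rds1*. Across the 39 genes, which are not independent replicates, the late changes in the mutants had a Pearson correlation of 0.99 and a Spearman correlation of 0.99.

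Overexpression of *ppk18* in nitrogen-rich medium was measured in libraries that played no part in the choice of the genes. Of the 39, 26 were higher and 6 lower than in the wild type (limma with Benjamini-Hochberg adjustment), where 29.6% of the 5863 genes tested were higher and 27.8% lower. The median of the members was 1.01 on the log2 scale, against -0.0007 over all genes. Of the members 20 rose at least 2-fold, and the share of all genes at that size was not counted. Of the 26, 20 rose late in both mutants, which is near the share among all members (29 of 39).

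The mating genes *mfm1* and *mam2* rose most. *mfm1* had 70.5 and 36.6 normalized counts in the wild type and 582 and 755 in the overexpression strain, and rose by 3.68 ± 0.26 (SE, n = 2; limma adjusted *p* = 2.89e-06). *mam2* had 104 and 88.5 and 714 and 706, and rose by 2.87 ± 0.12 (limma adjusted *p* = 1.04e-07). *ste11* had 2167 and 1767 and 5699.6 and 5916, and rose by 1.57 ± 0.09 (limma adjusted *p* = 6.43e-07). In these 3 genes, and in *mam1*, which rose by 1.19 ± 0.08, the strains did not overlap. *mam4* and *sxa2* were not called, at 0.11 ± 0.09 and 0.35 ± 0.17 (limma adjusted *p* = 0.315 and 0.107). In the list of 30 genes, not all of them mating genes of M cells, 22 of the 29 tested rose and 1 fell (*map2*), with a median of 1.08. Of all genes, 29.6% rose and 27.8% fell.

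Among the members linked to stress, *ddr48* had 1079 and 897 normalized counts in the wild type and 4176 and 3830.1 in the overexpression strain. It rose 4.06-fold, *rds1* rose by 1.25 ± 0.08 on the log2 scale, *ssa1* rose by 0.77 ± 0.06 and *fhn1* rose by 0.32 ± 0.07, while *rtc3* was not called (-0.04 ± 0.09, limma adjusted *p* = 0.705). In the list of targets of Sty1 and Atf1 20 of 24 rose and 1 fell. Of all genes, 29.6% rose and 27.8% fell, and the count that follows is to be read against this share too. Of the 7 metabolic enzymes 6 rose, led by *ssd2*, a succinate-semialdehyde dehydrogenase, with 83.2 and 70.8 and 493 and 410.1 normalized counts (2.54 ± 0.15), and the hydrolase gene SPAC23C11.06c, with 564 and 505 and 2909 and 2798 (2.42 ± 0.07). SPAC2H10.01 rose by 2.20 ± 0.10, from 644 and 505 to 2652 and 2603 normalized counts. *pdc201* fell by 0.52 ± 0.16 (limma adjusted *p* = 0.0208), and this call was lost with DESeq2 and without any of 3 of the 4 libraries, down to a fall of 0.20 (adjusted *p* = 0.131) without wild type replicate 1.

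Of the 9 uptake genes 2 were higher (SPCC794.04c and *str1*), 3 lower and 4 not called, where 29.6% of all genes were higher and 27.8% lower. Nothing is read from this split. *ght5* had 9652 and 8205 normalized counts in the wild type and 3125 and 2384 in the overexpression strain, and fell by 1.70 ± 0.12 (limma adjusted *p* = 2.42e-06). *bsu1* had 9094 and 6969 and 3961 and 4438, and fell by 0.92 ± 0.11 (limma adjusted *p* = 7.71e-05). The strains did not overlap for either gene. *sul1* fell by 0.19 ± 0.06 (limma adjusted *p* = 0.0166), a call lost without wild type replicate 2 or overexpression replicate 1. SPBPB2B2.06c fell by 1.30 ± 0.15 and SPBPB2B2.08 fell by 1.49 ± 0.28. In the list named for metal, phosphate and sulphate uptake, which also holds *pdc201*, 7 of 15 rose and 4 fell. In that for glucose derepression 11 of 15 rose and 1 fell.

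**Figure D5:**
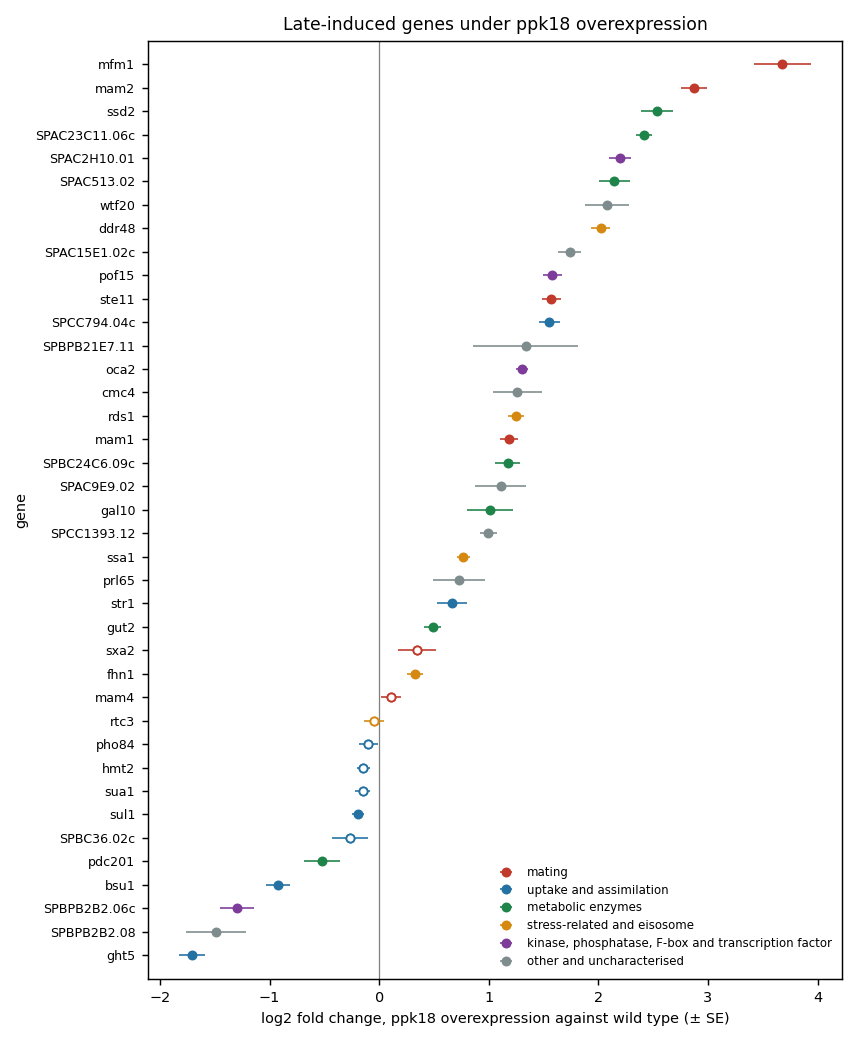
Log2 fold change of each of the 39 genes in the *ppk18* overexpression strain against the wild type, with the SE of the limma fit (2 libraries a group), coloured by role. Filled points passed an adjusted *p* of 0.05 and open points did not, and the values run from -1.70 for *ght5* to 3.68 for *mfm1*.

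By the RefSeq annotation 18 of the 39 genes lie on chromosome I, 15 on chromosome II and 6 on chromosome III. A gene of the table on the opposite strand overlaps 16 of them, a gene on the same strand overlaps 7, and 19 have neither. The libraries were made with a stranded kit, but the strand setting of the counting is not given in the sources used here. The 16 with a partner on the opposite strand are *ddr48*, *rds1*, *sul1*, *sua1*, *gut2*, *ssa1*, *sxa2*, *mam1*, *ssd2*, *fhn1*, *oca2*, *gal10*, SPAC23C11.06c, SPAC9E9.02, SPBC24C6.09c and SPBPB21E7.11. For these, reads of the partner may be part of the count. The 7 with a partner on the same strand are *pof15*, *fhn1*, *hmt2*, *pho84*, *oca2*, SPAC9E9.02 and SPCC1393.12.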

How the data were processed

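Per the labels and the study's methods, the authors aligned reads with HISAT2 2.1.0 to ASM294v2, counted them per gene with featureCounts (Subread 1.6.3) and deposited a normalized signal, each count divided by a DESeq2 size factor. Of the deposited values 100% were whole multiples of a step in each library (within 0.01 reads), which gave back the reads. RNA was extracted with different kits in the 2 experiments, whose tables were normalized apart and never compared with each other.

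Here limma 3.58.1 (R 4.3.3, with a mean-variance trend) was run on log2(normalized count + 1) of genes with a mean of at least 10, for the 27 time-course libraries in a single model and for the 4 others on their own. All 39 members passed this filter. Changes are on that scale, which understates those of low counts. The Benjamini-Hochberg adjustment covered all genes tested, with a threshold of 0.05. Of 200 genes changed 2-fold in simulated data, 196 were found with 10 false calls for the late change in *igo1*∆ among 6036 genes, and 186 with 9 for overexpression among 5863. The simulated counts had the same fixed dispersion for all genes and no outlying libraries. They check the code and do not give the error rate for the real data.

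Members and lists were chosen with earlier results of these data known, and roles were given to the members afterwards. The text names members that are in a list, the 8 with the largest wild type late ratio, the 5 largest and 5 smallest late changes in each mutant, those called between the mutants, the 5 largest rises and falls under overexpression, and 3 on each side of each limit. *hmt2*, *ssa1*, *fhn1*, *oca2*, *wtf20*, *cmc4*, *gal10*, SPAC9E9.02, SPBC36.02c and SPCC1393.12 were named after their values were seen.

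The replicate number was taken to pair 2 groups where the deviations of same-numbered libraries had a correlation above 0.1 in all 3 pairs, which held only between the mutants at 1 h (0.58, 0.63 and 0.20). All replicates differed by more than sampling noise (chi-square per gene of at least 8.50). Alternatives were a pseudocount of 10, a minimum mean of 50 or no filter, equal totals, quantile normalization, the compared groups alone, a replicate block, edgeR 4.0.16 and DESeq2 1.42.0 on the reads, each library left out, and other limits of the rule. RefSeq (ASM294v3) matched 6852 of 7001 identifiers. The labels give a time of 0 h for the overexpression samples, and 20 h is from their protocol. Plots were made in Python 3.11.15 with matplotlib 3.10.9.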

Additional observations from a re-analysis of the deposited data

Results flagged for a closer look

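Some mating genes moved in opposite directions in the wild type and the mutants from 1 h to 4 h in MM-N. All wild type libraries of 4 h lay above all of 1 h, which the choice of the genes favours, while all mutant libraries of 4 h lay below all of 1 h. In *igo1*∆ this held for *mfm1* (-2.05 on the log2 scale), *mam4* (-0.96), *mam2* (-0.76) and *sxa2* (-0.51). In *ppk18*∆ *cek1*∆ it held for *mfm1* (-2.48), *mam2* (-1.06), *mam4* (-0.79), *sxa2* (-0.45) and *mam1* (-0.14), the last without passing the limma threshold. The difference from the wild type was not tested, since the wild type libraries chose the genes.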

How the results depend on the processing

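Of 165 changes called for single members, 150 kept their call in every alternative, 0 reversed, and 15 lost the call in at least 1. With equal totals, 8 members instead of 5 rose in the first hour in *igo1*∆ and 8 instead of 4 in *ppk18*∆ *cek1*∆. Between the mutants at 4 h, 1 member was called, against 4 by edgeR and by DESeq2 and 0 with no filter on low counts, with only the groups compared and with equal totals. The shares of all genes called by edgeR and DESeq2 were not counted, and the cause was not tested.

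Leaving out a library gave 29 to 31 late rises and 4 falls in *igo1*∆, 30 to 33 and 4 in *ppk18*∆ *cek1*∆, 4 to 7 rises and 25 to 28 falls in the first hour in *igo1*∆, and 4 to 5 and 25 to 27 in *ppk18*∆ *cek1*∆. Between the mutants it gave 0 to 2 members at 4 h, and 0 at 1 h and in the difference of the late changes. It gave 24 to 27 rises and 5 to 6 falls under overexpression, where a lone library is assumed to vary like the other group. The rule found 35 to 48 genes without 1 wild type library, and 26 with a late ratio of at least 3, 43 with a first hour ratio below 2, 33 with equal totals (30 of them among the 39, without *mfm1*, *mam1*, *sxa2* and *prl65*, among others) and 40 with 1 added in place of 10. Overexpression rests on 2 libraries a group.

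With the replicate number as a block, 29 members rose and 4 fell late in *igo1*∆, 33 and 4 in *ppk18*∆ *cek1*∆, 6 and 26 in the first hour in *igo1*∆, 5 and 29 in *ppk18*∆ *cek1*∆, and 26 and 6 under overexpression, while 1, 0 and 0 members differed between the mutants at 4 h, at 1 h and in the late change. A block within each strain, added after the data were seen, gave 33 and 4, 34 and 5, 6 and 26, and 6 and 28. The late changes called there and not without a block were SPAC2H10.01, *pof15*, *ste11* and *ght5* in *igo1*∆ and *pof15*, *mam1* and *ght5* in *ppk18*∆ *cek1*∆ (limma adjusted *p* of 0.00137 for *ght5* in the latter). The replicate numbers of the overexpression experiment deviated in opposite directions, and crossed numbers, also added later, gave 27 rises and 8 falls.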
